A study of Mus musculus with 104 samples.

Results

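The 7 genes described here are Odf4, Sec14l3, Phex, Ddit4l, Serpinb1b, St8sia2 and Abhd11os. They were picked because they fell in the striatum of BAC-CAG mice at 12 months or in several striatal comparisons of a study of 2 mouse models of Huntington's disease. They are 7 of the 48795 genes in the tables of the BAC-CAG line and 7 of the 22981 in the table of the BACHD line, where Abhd11os is listed under its older symbol 2010001M06Rik. Because the members were chosen from the striatal difference between genotypes, that difference is described below and not offered as a test. Levels in the cortex and the contrast of the sexes played no part in the choice and were tested. The contrast of the tissues in wild-type (WT) mice shares its striatal libraries with the choice and is given as a description.

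All mice were on the FvB background and were perfused before dissection. Both transgenic lines carry human HTT with an expanded repeat on a bacterial artificial chromosome, beside the mouse's own Htt gene. As background, the repeat of BAC-CAG is mainly an uninterrupted run of CAG, and that of BACHD a mix of CAA and CAG. For each tissue there were 6 BAC-CAG mice and 6 WT littermates aged 2 months, and 8 of each genotype aged 6 months and again 12 months. The BACHD cohort held 4 BACHD mice and 4 WT littermates of its own, all aged 12 months, for each tissue. Each group held equal numbers of females and males, and each library of a group came from a separate animal, per the tags in the sample titles. Levels are in counts per M (CPM), a gene's reads scaled to the same total of counted reads in every library.

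The striatum consists largely of spiny projection neurons, the cells most affected in Huntington's disease, and loss of transcripts that mark these neurons is a well-known feature of the disease and its models. The 7 genes do not form a pathway. Odf4 encodes a protein of the outer dense fibres of the sperm tail. Phex encodes a membrane endopeptidase whose loss causes X-linked hypophosphataemia. St8sia2 encodes a sialyltransferase that builds polysialic acid on the neural cell adhesion molecule, best known in the developing brain. Sec14l3 belongs to the SEC14-like lipid carriers, and Serpinb1b to the clade B serine protease inhibitors. Abhd11os is a noncoding RNA known for its high level in the striatum, and Ddit4l (also called Redd2) encodes a stress-induced inhibitor of mTOR signalling.

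The genes lie on 6 chromosomes (GRCm38, GENCODE M21). Odf4 (chr11:68921835-68927081, minus strand) and Sec14l3 (chr11:4064841-4077736, plus strand) share chromosome 11, far apart. Phex is at chrX:157162075-157415312 (minus), St8sia2 at chr7:73939119-74013690 (minus) and Ddit4l at chr3:137621612-137628333 (plus). Serpinb1b is at chr13:33078575-33094380 (plus). Abhd11os is at chr5:135012114-135013253 (minus), is annotated there as a transcribed unitary pseudogene, and overlaps its neighbour Abhd11 by 62 bp on the opposite strand. The libraries were stranded, but the strand setting of the counting was not given in the sources used here, so reads of that stretch cannot be assigned to one of the pair. Of the 69-base windows of Serpinb1b transcripts, 27 of 1858 (1.45%) also occur in other genes, mostly its copy Serpinb1c, against 8 of 6223 (0.129%) for Phex and 0 for the other 5.

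Promoter windows of 300 bases, from 250 before to 50 after the RefSeq start (GRCm38.p6), were found for all 7 genes. The 4 printed here are those of the genes on which the results turn most. Odf4 (chr11:68927032-68927331, minus) and Phex (chrX:157415237-157415536, minus) had the largest striatal changes of the 7 at 2 and 6 months. Sec14l3 (chr11:4064603-4064902, plus) had its largest change at 12 months. Ddit4l (chr3:137623422-137623721, plus) was the member with the higher level in cortex, and its RefSeq start lies inside the GENCODE gene model. Capitals mark the letters TGACG or TATAAA.
Odf4: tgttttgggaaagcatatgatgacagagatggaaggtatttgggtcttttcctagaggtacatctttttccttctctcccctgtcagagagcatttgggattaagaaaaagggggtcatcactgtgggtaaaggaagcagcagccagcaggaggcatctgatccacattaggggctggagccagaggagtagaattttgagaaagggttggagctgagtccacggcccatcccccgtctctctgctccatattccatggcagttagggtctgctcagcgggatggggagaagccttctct
Phex: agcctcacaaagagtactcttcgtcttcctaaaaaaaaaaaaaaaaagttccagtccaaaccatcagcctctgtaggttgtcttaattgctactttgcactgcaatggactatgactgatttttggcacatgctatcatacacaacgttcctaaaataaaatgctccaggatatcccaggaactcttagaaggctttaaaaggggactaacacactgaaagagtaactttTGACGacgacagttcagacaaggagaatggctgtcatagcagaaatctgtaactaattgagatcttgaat
Sec14l3: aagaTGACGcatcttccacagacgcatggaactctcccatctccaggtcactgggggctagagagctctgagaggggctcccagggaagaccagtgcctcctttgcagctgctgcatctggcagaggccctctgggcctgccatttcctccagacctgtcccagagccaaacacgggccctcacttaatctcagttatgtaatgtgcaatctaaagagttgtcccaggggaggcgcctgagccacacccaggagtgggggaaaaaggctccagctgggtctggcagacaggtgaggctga
Ddit4l: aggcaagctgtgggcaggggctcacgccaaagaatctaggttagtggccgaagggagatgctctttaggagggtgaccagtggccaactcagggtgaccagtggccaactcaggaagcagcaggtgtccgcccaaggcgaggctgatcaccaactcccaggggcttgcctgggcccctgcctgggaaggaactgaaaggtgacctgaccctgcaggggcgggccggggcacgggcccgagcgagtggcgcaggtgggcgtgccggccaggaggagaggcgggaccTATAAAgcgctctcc

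Letters were searched on both strands in the same window of 32851 promoters. The full cAMP response element TGACGTCA was in 0 of the 7 windows and in 1.79% of all promoters. Its shorter core TGACG, which is part of the full element, was in those of Sec14l3 and Phex and in 20.81% of all. The TATA box letters TATAAA were in that of Ddit4l only and in 13.62% of all. GGGCGG was in 3 windows (Ddit4l, St8sia2 and Abhd11os, 35.66% of all), CCAAT in 2 (Serpinb1b and Abhd11os, 37.41% of all) and CANNTG in 6, all but St8sia2 (72.31% of all). No motif searched was present in all 7 windows. The GC content ran from 38.7% in Phex to 68.7% in St8sia2, on either side of the median of 52.7% over all promoters. A match is a run of letters and not a measured binding site.

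The 104 libraries held 25.8 to 48.4 M counted reads (mean 36.5 M, SD 4.70). The sum of 10 cortical excitatory neuron markers set 2 libraries apart, BAC-CAG striatum at 12 months replicates 2 and 7, at 686 and 1060 CPM against 64.3 to 315 CPM in the other 14 striatal libraries of that age. Oligodendrocyte markers set apart WT striatum at 2 months replicates 5 and 6, with sums that reached 18450 CPM against a group median of 6774 CPM. Sums in that group also reached 1911 CPM for astrocyte markers (median 950) and 353 CPM for cortical markers (median 83.2). Choroid plexus markers were uneven as well. Their striatal sums reached 1517, 1131 and 1658 CPM in BAC-CAG mice at 2, 6 and 12 months (medians 58.5, 95.4 and 59.75). In WT mice at 12 months they reached 1672 CPM (median 73.9). WT striatum of the BACHD cohort replicate 4 had 456 CPM of cortical markers, against 86.7 to 132 CPM in the other 7. WT striatum at 2 months replicate 2, a female by its label, held 43.0 CPM of Y-linked transcripts, against at most 0.583 CPM in the other females and at least 148 CPM in males. Values without the pairs are given for the 2-month and 12-month striatal changes of the BAC-CAG cohort. Values without the 2 single libraries are given only for the 2-month sex difference and where an overlap or a call turns on 1 of them. The other 2-month and BACHD striatal changes include them, apart from fits that left out each library in turn.

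The genes were not all weakly expressed. By mean CPM over the striatal libraries at 12 months, Odf4 stood at percentile 20.9 of the 18246 genes tested, Phex at 25.1, Serpinb1b at 26.9, Sec14l3 at 36.9 and Abhd11os at 38.4. Ddit4l and St8sia2 stood at percentiles 50.2 and 52.5, at the middle of the genes tested. By CPM, the working name of weakly expressed genes therefore holds for 5 of the 7. Abhd11os has only 701 bp of exon. Levels per length were computed for the 7 members only, so whether the name holds per length was not examined. Per kilobase of exon, the level in WT striatum at 12 months was 12.3 CPM for Abhd11os (SD 1.13, n = 8) and 6.69 CPM for Ddit4l (SD 0.891). These were the highest of the 7, and neither overlapped its neighbour in the order. St8sia2 at 3.66 CPM per kilobase (SD 0.743) and Sec14l3 at 3.21 (SD 0.762) overlapped each other. Serpinb1b at 2.12 (SD 0.544) and Odf4 at 2.09 (SD 0.329) also overlapped, and Phex was lowest at 0.548 (SD 0.216).

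In the striatum of BAC-CAG mice the members were lower at 12 months by a median log2 change of -1.13, against 0.0025 over all genes tested. At 2 months the median was -0.25 and at 6 months -0.31. All 7 had a negative change at 6 and 12 months, against 50.7 and 49.0% of all genes tested. At 2 months 5 of 7 did, against 52.9%. The same shares, and 51.3% in BACHD striatum, apply to the sign counts of gene lists given below. At 12 months edgeR's quasi-likelihood test with Benjamini-Hochberg adjustment called 5 of the 7 lower, against 0.23% of all genes tested, a contrast that the choice of members had used. The 2 not called were just outside the threshold of 0.05, Serpinb1b at 0.056 and St8sia2 at 0.069, and Abhd11os was nearest inside at 0.017. DESeq2 and limma-voom called all 7 at this age, with 1.54 and 1.09% of all genes called, and edgeR without BAC-CAG replicate 6 called 3 (0.0926% of all genes). With all libraries edgeR called 0 of 7 at 2 months (0% of all genes lower) and 0 at 6 months (0.00563%), where 3 and 5 members had an unadjusted p under 0.05. DESeq2 called Phex at 2 months (0.0335% of all genes called) and Odf4, Phex and St8sia2 at 6 months (0.141%), and limma-voom called 0 at both ages. In BACHD striatum edgeR called 0 of 7 (0.0126% of all genes lower), 5 had an unadjusted p under 0.05, DESeq2 called Phex (0.24% of all genes called) and limma-voom 0. The median change there was -0.41 against -0.0031 over all genes. Counts at an unadjusted p under 0.05, here and below, are given without the share of all genes under that cut, which was not computed. The choice of members had drawn on these striatal contrasts.

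Several 2-month values depended on WT replicates 5 and 6, the libraries rich in oligodendrocyte markers. Both are males by their labels, so the WT group without them was mostly female. Without both, the log2 change of Sec14l3, with sex as covariate, was -0.26 in place of -0.045. Then 4 of 6 BAC-CAG libraries were below every WT library in place of 0, a count not matched for sex. WT females held more Sec14l3 than WT males at 2 months (means of 3.64 and 2.25 CPM, n = 3 each). The share of all genes with such a count was not computed. Nor was it for the partial counts of libraries below every WT library, or the counts below the WT median, given further on. Ddit4l stood at -0.41 in place of -0.25, St8sia2 at -0.12 in place of -0.27 and Serpinb1b at 0.05 in place of 0.09. Odf4 and Phex stood at -0.71 and -0.96, and Abhd11os at -0.045. With edgeR 0 members were called in this fit as well.

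**Figure D1:**
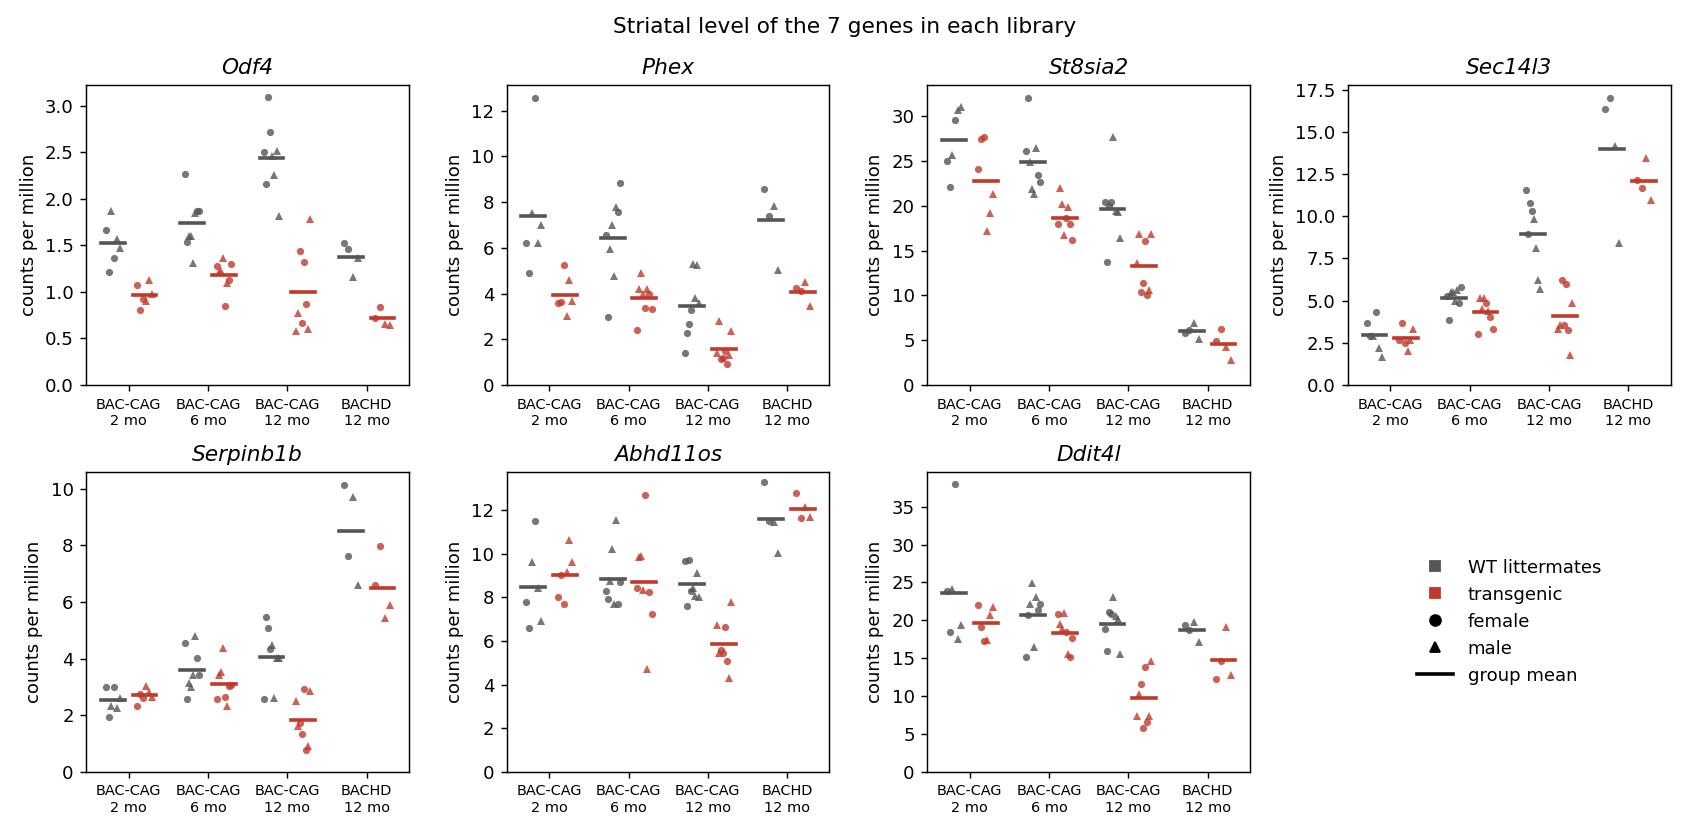
Level of each gene in every striatal library (vertical axis, CPM, starting at 0) by line and age (horizontal axis), with WT littermates in grey, transgenic mice in red, females as circles, males as triangles and group means as bars. Sec14l3, Serpinb1b, Abhd11os and Ddit4l separate most at 12 months in BAC-CAG mice, while Odf4 and Phex also lie apart in BACHD mice and, but for 1 library of Phex, at 2 months.

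Odf4, the sperm-tail gene, had the most complete separation of genotypes. At 2 months its striatal level ran from 1.22 to 1.87 CPM in WT mice (median 1.52) and from 0.803 to 1.12 CPM in BAC-CAG mice (median 0.952). No BAC-CAG library reached the lowest WT library, a pattern that 0.0837% of all genes tested showed in this direction. At 6 months WT libraries held 1.31 to 2.27 CPM (median 1.73) and BAC-CAG libraries 0.847 to 1.36 CPM (median 1.22), with 7 of 8 below every WT library. At 12 months WT libraries held 1.81 to 3.10 CPM (median 2.48) and BAC-CAG libraries 0.581 to 1.79 CPM (median 0.819). The groups did not overlap at 12 months (0.0932% of all genes), nor without the libraries with most cortical markers. In order of age, the log2 change came to -0.65 (SE 0.15), -0.59 (SE 0.13) and -1.29 (SE 0.21). Even at 12 months a BAC-CAG library held only 17 to 71 reads of Odf4.

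BACHD mice showed the same direction for Odf4. Their 4 striatal libraries held 0.721, 0.837, 0.660 and 0.644 CPM, and those of their WT littermates 1.52, 1.46, 1.16 and 1.37 CPM. The groups did not overlap, as for 1.42% of all genes tested in this direction, and the log2 change was -0.95 (SE 0.15). Odf4 was thus the only member whose genotypes were fully separated in 3 of the 4 striatal comparisons, and in the fourth a single BAC-CAG library overlapped.

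Phex, the membrane endopeptidase, was also lower in all 4 comparisons. At 2 months WT libraries held 4.89 to 12.6 CPM (median 6.63) and BAC-CAG libraries 3.01 to 5.25 CPM (median 3.66). Of the BAC-CAG libraries 5 of 6 lay below every WT library, and 6 of 6 once WT replicate 2, the library with Y-linked transcripts, was left out. The share of all genes separated without that library was not computed. At 6 months WT libraries held 2.98 to 8.86 CPM (median 6.79) and BAC-CAG libraries 2.41 to 4.88 CPM (median 3.97). The groups overlapped through the 2 lowest WT libraries (2.98 and 4.75 CPM), and all 8 BAC-CAG libraries were below the WT median. At 12 months WT libraries held 1.41 to 5.30 CPM (median 3.44) and BAC-CAG libraries 0.920 to 2.82 CPM (median 1.37). The groups overlapped, and 5 of 8 BAC-CAG libraries were below every WT library. Its log2 change was -0.91 (SE 0.21), -0.81 (SE 0.17) and -1.13 (SE 0.19) at the 3 ages, and the intervals of 1 SE around the 2-month and 12-month values overlapped. The 4 BACHD libraries held 4.23, 4.13, 4.53 and 3.48 CPM and the WT libraries 8.57, 7.39, 7.83 and 5.02 CPM. These did not overlap, as for 1.42% of all genes tested in this direction, and the log2 change was -0.82 (SE 0.16).

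Values of Phex also differed between ages and sexes, without passing edgeR's test for sex. Its mean in WT striatum was 7.41 CPM at 2 months (SD 2.68, n = 6), 6.44 at 6 months (SD 1.87, n = 8) and 3.45 at 12 months (SD 1.36, n = 8). The 12-month WT littermates of BACHD mice held 7.20 CPM (SD 1.54, n = 4), so the low WT level at 12 months was not shared by the other cohort of that age. Each age and cohort was counted in a table of its own, and age and table cannot be told apart. At 12 months the 4 WT females held 1.41, 2.27, 2.68 and 3.27 CPM and the 4 WT males 5.30, 3.82, 5.24 and 3.60 CPM. Among BAC-CAG mice the females held 1.12, 1.19, 1.49 and 0.920 CPM and the males 1.40, 2.82, 1.34 and 2.36 CPM. WT females were all below WT males, and the share of all genes separated by sex in this way was not computed. Over both genotypes the female minus male log2 difference was -0.85 (SE 0.19), which did not pass edgeR's quasi-likelihood test after Benjamini-Hochberg adjustment (adjusted p = 0.117), while DESeq2 (0.57% of all genes called) and limma-voom (0.192%) called it. The genotype difference was present within each sex, as a log2 ratio of group means of -1.03 in females and -1.18 in males. At 2 and 6 months the sex difference of Phex was 0.17 (SE 0.21) and -0.19 (SE 0.17), and in the BACHD cohort 0.19 (SE 0.16), with no call by edgeR. With edgeR 0 members were called by sex at any age, where 0.0614, 0.101 and 0.186% of all genes passed in order of age, and 0.101% among BACHD mice and their littermates. At an unadjusted p under 0.05 there were 1, 1, 2 and 0 members, and DESeq2 and limma-voom called 0 apart from Phex at 12 months. The other gene in these counts was Sec14l3, with female minus male log2 differences of 0.42 (SE 0.19), -0.24 (SE 0.10) and 0.47 (SE 0.18) at 2, 6 and 12 months. The sign was not the same at each age. At 2 months the difference of Sec14l3 was 0.46 (SE 0.20) without WT replicate 2, the female library with Y-linked transcripts, and 0.20 (SE 0.18) without WT replicates 5 and 6. That of Phex was 0.29 (SE 0.18) without replicate 2.

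St8sia2, the polysialyltransferase, had a smaller difference, lower in each comparison. At 2 months WT libraries held 22.2 to 31.1 CPM (median 27.7) and BAC-CAG libraries 17.2 to 27.7 CPM (median 22.8). At 6 months the ranges were 21.4 to 32.1 CPM (median 24.2) and 16.2 to 22.0 CPM (median 18.3), and 7 of 8 BAC-CAG libraries were below every WT library. At the last age WT libraries held 13.7 to 27.7 CPM (median 19.7) and BAC-CAG libraries 10.02 to 16.9 CPM (median 12.5). The groups overlapped at each age, and all BAC-CAG libraries were below the WT median at 6 and 12 months. The log2 change was -0.27 (SE 0.12), -0.45 (SE 0.09) and -0.60 (SE 0.13) in order of age. The BACHD libraries held 4.87, 6.24, 4.24 and 2.76 CPM and their WT littermates 5.82, 6.19, 6.97 and 5.11 CPM. There 3 of 4 BACHD libraries were below every WT library, with a log2 change of -0.45 (SE 0.19). Its level in this table was well below that in the BAC-CAG tables in both genotypes, and cohort and table cannot be told apart.

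Sec14l3, the SEC14-like lipid carrier, had its largest difference at 12 months, and its WT level was higher at each later age. At 2 months WT libraries held 1.66 to 4.35 CPM (median 2.91) and BAC-CAG libraries 2.00 to 3.66 CPM (median 2.67). At 6 months the ranges were 3.85 to 5.79 CPM (median 5.39) and 3.05 to 5.18 CPM (median 4.45). By 12 months WT libraries held 5.70 to 11.6 CPM (median 9.37) and BAC-CAG libraries 1.80 to 6.25 CPM (median 3.54). The WT mean was 2.95 CPM at 2 months (SD 0.971), 5.17 at 6 months (SD 0.622) and 8.92 at 12 months (SD 2.12). The BAC-CAG mean was 2.80 CPM (SD 0.597), 4.30 (SD 0.796) and 4.07 (SD 1.51) at the same ages. The log2 change was -0.045 (SE 0.19; -0.26 without WT replicates 5 and 6), -0.31 (SE 0.10) and -1.16 (SE 0.18), and at 12 months 6 of 8 BAC-CAG libraries were below every WT library. Within each sex at 12 months the genotypes did not overlap, and the share of all genes separated within sex was not computed.

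Sec14l3 was highest of all in the BACHD cohort. The WT libraries held 16.4, 17.0, 14.1 and 8.39 CPM and the BACHD libraries 12.2, 11.7, 13.4 and 11.0 CPM. WT replicate 4, the striatal library with most cortical markers of that cohort, was the lowest of the 8. Without it all 4 BACHD libraries were below all WT libraries, a subset for which the share of all genes was not computed. With all libraries 1.42% of all genes tested separated in this direction. The fitted log2 change was -0.20 (SE 0.18). The log2 ratio of group means was -0.21 with all libraries and -0.39 without replicate 4.

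Serpinb1b, the clade B serpin, had no difference at 2 months beyond its spread, with a log2 change of 0.09 (SE 0.13). WT libraries then held 1.95 to 2.999 CPM (median 2.48) and BAC-CAG libraries 2.34 to 3.04 CPM (median 2.69). At 6 months the ranges were 2.57 to 4.80 CPM (median 3.41) and 2.32 to 4.37 CPM (median 3.06), with a log2 change of -0.26 (SE 0.14). At 12 months WT libraries held 2.58 to 5.48 CPM (median 4.18) and BAC-CAG libraries 0.767 to 2.92 CPM (median 1.68). The groups overlapped through 2 WT libraries near 2.58 and 2.59 CPM, and the log2 change was -1.18 (SE 0.25). Like Sec14l3, its WT mean was higher at each later age, at 2.52 CPM (SD 0.419), 3.61 (SD 0.778) and 4.08 (SD 1.05), while BAC-CAG mice went from 3.12 CPM at 6 months (SD 0.654) to 1.83 CPM at 12 months (SD 0.837). BACHD libraries held 6.61, 7.96, 5.45 and 5.90 CPM and WT libraries 10.1, 7.63, 9.73 and 6.61 CPM. All 4 BACHD libraries were below the WT median, the groups overlapped, and the log2 change was -0.41 (SE 0.15).

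Abhd11os, the striatal noncoding RNA, had overlapping genotypes before 12 months. WT libraries held 6.59 to 11.5 CPM at 2 months (median 8.10) and 7.69 to 11.5 CPM at 6 months (median 8.49). BAC-CAG libraries held 7.68 to 10.6 CPM (median 9.09) and 4.70 to 12.7 CPM (median 8.39). At 12 months WT libraries held 7.60 to 9.72 CPM (median 8.34) and BAC-CAG libraries 4.30 to 7.80 CPM (median 5.51). Of the BAC-CAG libraries 7 of 8 were then below every WT library. Within each sex the genotypes did not overlap, with the share of all genes separated within sex not computed. The log2 change was 0.08 (SE 0.14), -0.06 (SE 0.15) and -0.58 (SE 0.10), the first of which was -0.045 without WT replicates 5 and 6, rich in oligodendrocyte markers. BACHD libraries held 12.8, 11.6, 12.1 and 11.7 CPM and WT libraries 13.3, 11.5, 11.5 and 10.03 CPM, a log2 change of 0.06 (SE 0.09). This was the member with no lower level in BACHD striatum.

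Ddit4l, the mTOR inhibitor, had WT striatal means of 23.5, 20.8 and 19.5 CPM at 2, 6 and 12 months (SD 7.62, 3.30 and 2.60) and 18.7 CPM in the BACHD cohort (SD 1.17). At 2 months WT libraries held 17.5 to 38.0 CPM (median 21.6) and BAC-CAG libraries 17.3 to 22.0 CPM (median 19.9), and at 6 months the ranges were 15.2 to 24.9 CPM (median 21.8) and 15.2 to 21.0 CPM (median 18.6). At 12 months WT libraries held 15.6 to 23.1 CPM (median 20.4) and BAC-CAG libraries 5.84 to 14.6 CPM (median 8.82). The 12-month groups did not overlap (0.0932% of all genes tested, with all libraries), with or without replicates 2 and 7. The log2 change was -0.25 (SE 0.16), -0.21 (SE 0.10) and -1.03 (SE 0.17). In the BACHD cohort the transgenic libraries held 12.3, 14.7, 19.1 and 12.8 CPM and the WT libraries 19.4, 18.8, 19.7 and 17.1 CPM. There 3 of 4 BACHD libraries were below every WT library, and the log2 change was -0.36 (SE 0.14).

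**Figure D2:**
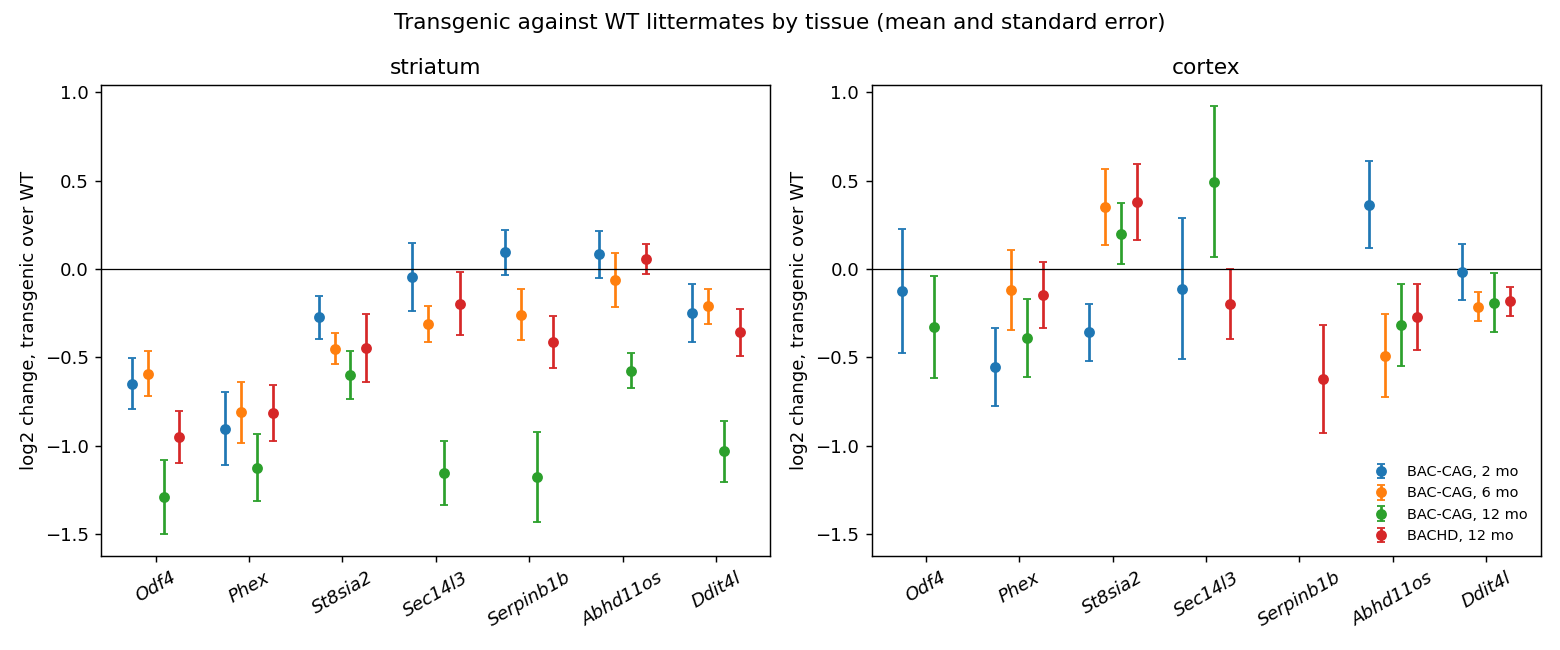
Log2 change of each gene in transgenic mice over WT littermates (vertical axis) in striatum and cortex, with points for the edgeR estimate and bars for 1 standard error, coloured by line and age. Genes without a point in cortex did not pass the filter on low counts there. In striatum the 12-month BAC-CAG values lie between -1.29 and -0.58, and in cortex no value passed the test.

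The 12-month differences were nearly as large without the libraries that held most cortical markers. Without BAC-CAG replicates 2 and 7 the log2 change was -1.16 for Odf4, -1.05 for Sec14l3, -1.15 for Phex, -0.98 for Ddit4l, -1.04 for Serpinb1b, -0.59 for St8sia2 and -0.49 for Abhd11os. With the 6 remaining BAC-CAG libraries edgeR called 2 members in place of 5, Sec14l3 and Phex, and 0.0812% of all genes in place of 0.329%. Of the 10 cortical markers 9 had a positive change at 12 months and 0 passed the test, with sums of 99.6 to 1060 CPM in BAC-CAG and 64.3 to 315 CPM in WT striatum and no marker at 0. In BACHD striatum the same markers went the other way, 10 of 10 negative with 0 called. Their sums were 86.7 to 132 CPM in BACHD and 86.9 to 456 CPM in WT mice. The value of 456 CPM is that of WT replicate 4, and the median sums were 106 CPM in BACHD and 112 CPM in WT mice.

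**Figure D3:**
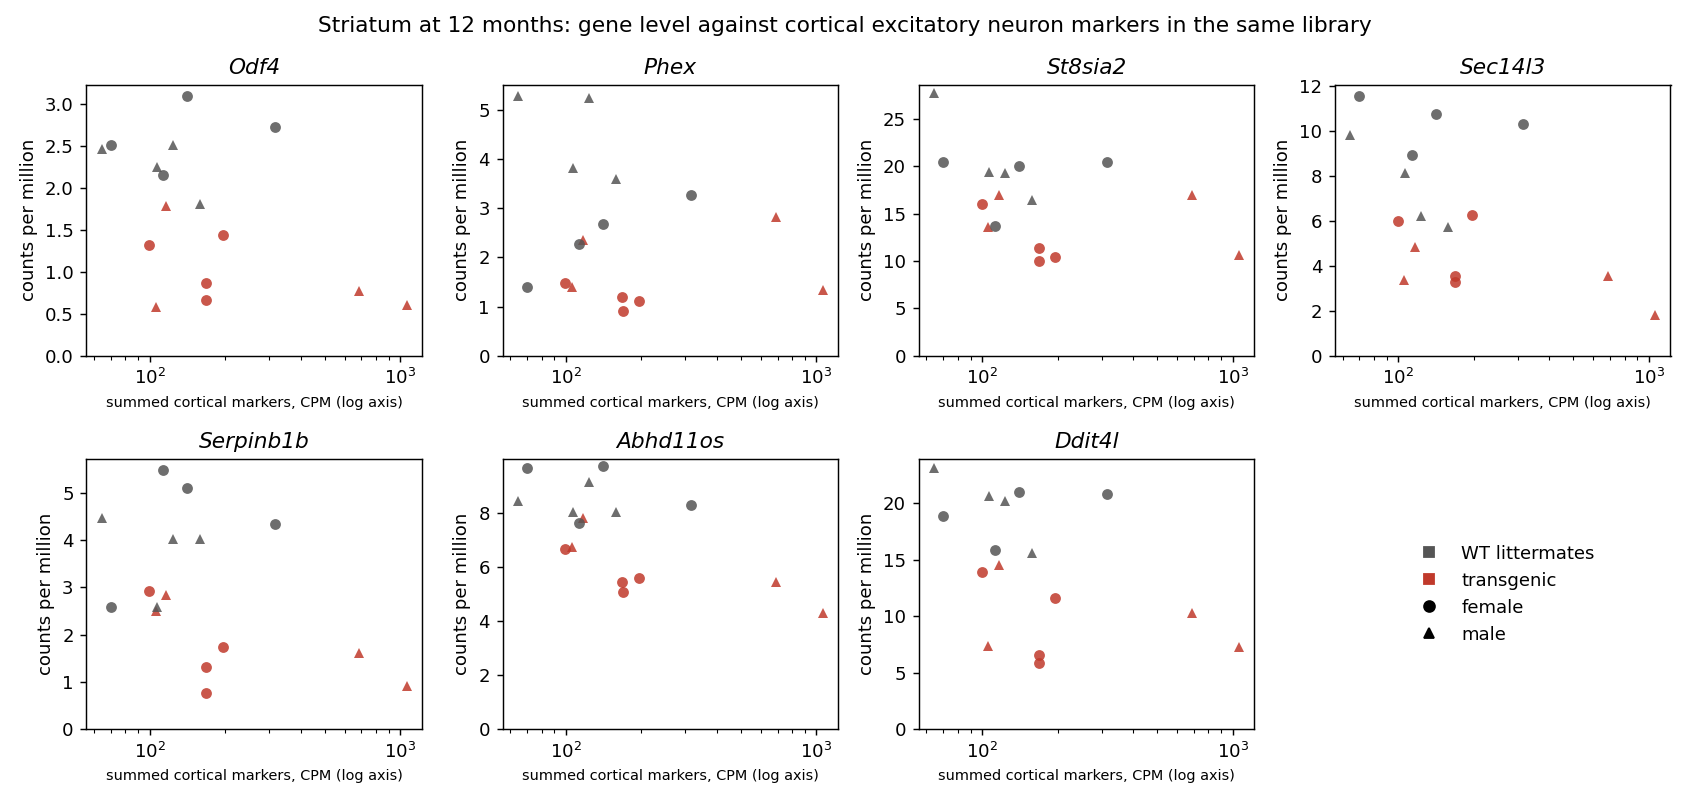
Level of each gene (vertical axis, CPM, starting at 0) against the summed level of 10 cortical excitatory neuron markers (horizontal axis, CPM, log axis) in the 16 striatal libraries of BAC-CAG mice (red) and WT littermates (grey) at 12 months, females as circles and males as triangles. The 2 libraries at 686 and 1060 CPM of cortical markers are BAC-CAG mice, and the other 6 BAC-CAG libraries lie within the range of WT libraries on this axis.

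Of 26 genes of striatal projection neurons, the main cell type of the tissue, 4 were called lower and 0 higher by edgeR at 12 months, with a median log2 change of -0.36 and 25 of 26 negative. They were Penk (proenkephalin, -0.72, SE 0.11), Actn2 (an actinin of dendritic spines, -0.62, SE 0.09), Cnr1 (the cannabinoid receptor, -0.48, SE 0.09) and Rgs4 (a regulator of G protein signalling, -0.34, SE 0.06). The summed level of the list was 10310 to 17410 CPM in BAC-CAG and 14470 to 20000 CPM in WT striatum. Its median change was -0.09 at 2 months and -0.14 at 6 months, with 0 called and 3 and 14 of 26 at an unadjusted p under 0.05. In BACHD striatum the median was -0.02 with 0 called and 14 of 26 negative, in a fit that includes WT replicate 4. The summed level there was 20150 to 22820 CPM in BACHD (median 21350) and 18780 to 23930 CPM in WT mice (median 23465). Odf4 and Phex stood at -0.95 and -0.82 in the same comparison. In whole tissue, fewer cells of a type and less RNA per cell cannot be told apart.

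Markers of other cell types had no called member in any striatal comparison with edgeR. At 12 months all 6 oligodendrocyte markers had a negative change (median -0.26, 3 at an unadjusted p under 0.05), with sums of 3739 to 8279 CPM in BAC-CAG and 6263 to 10480 CPM in WT striatum. All 6 microglial markers also had a negative change (median -0.17, 6 at an unadjusted p under 0.05). All 6 ependymal markers had a negative change (median -0.28, 0 at an unadjusted p under 0.05), and they summed to 16.2 to 43.6 CPM in BAC-CAG and 26.0 to 37.9 CPM in WT striatum at 12 months. Astrocyte markers were negative in 6 of 6 (median -0.12, 2 at an unadjusted p under 0.05) and interneuron markers in 6 of 8 (median -0.20, 2 under 0.05). At 2 months interneuron markers were instead positive in 8 of 8 (median 0.23, 5 under 0.05), and oligodendrocyte markers negative in 6 of 6 (median -0.44, 0 under 0.05). The latter fit includes WT replicates 5 and 6, the libraries rich in these markers. The median oligodendrocyte sum at 2 months was higher in BAC-CAG (7448.5 CPM) than in WT striatum (6774 CPM). In BACHD striatum oligodendrocyte markers were positive in 5 of 6 (median 0.17, 3 under 0.05) and those of their precursors in 6 of 6 (median 0.14, 2 under 0.05). Their part in the members' differences was not tested.

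Genes related to each member by function or sequence, from lists written for this purpose, were tested in the same fit. No gene of these 7 lists passed edgeR's test at 12 months. For Odf4, 6 of 12 sperm-tail genes were measured well enough to test and 2 were negative (median 0.03, 0 at an unadjusted p under 0.05). Spag6 was at 0.59 (SE 0.33) and Tekt4 at -0.25 (SE 0.23). For Phex, 16 of 19 phosphate and metallopeptidase genes were tested with 12 negative (median -0.04, 0 at an unadjusted p under 0.05), among them Ece1 at -0.06 (SE 0.03) and Enpp1 at 0.16 (SE 0.10). For St8sia2, 16 of 16 sialic acid genes were tested with 7 negative (median 0.0088, 3 at an unadjusted p under 0.05). The sister sialyltransferases St8sia3 and St8sia5 were at -0.19 (SE 0.06) and 0.32 (SE 0.15). For Ddit4l, 16 of 16 mTOR and stress genes were tested with 6 negative (median 0.04, 3 at an unadjusted p under 0.05), and the autophagy kinase Ulk1 was at 0.13 (SE 0.04) and Sesn3 at -0.20 (SE 0.07).

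Close relatives in sequence or place were looked at one by one. Of the SEC14-like carriers 10 of 11 were tested (8 negative, median -0.07, 1 at an unadjusted p under 0.05). Sec14l1 was at -0.16 (SE 0.06), Sec14l2 at -0.05 (SE 0.06), Sec14l5 at -0.08 (SE 0.11) and Ttpa, the tocopherol carrier, at -0.20 (SE 0.11). Of the clade B serpins 5 of 13 were tested (4 negative, median -0.15, 1 at an unadjusted p under 0.05). Serpinb1a, the closest expressed relative, went from 18.2 CPM (SD 3.81, n = 8) in WT to 12.5 CPM (SD 3.76, n = 8) in BAC-CAG striatum at 12 months, a log2 change of -0.57 (SE 0.16) that did not pass edgeR's test (adjusted p = 0.163). Serpinb1c, which shares windows with Serpinb1b, held at most 0.0489 CPM in any 12-month striatal library, against 0.767 CPM or more of Serpinb1b. Around Abhd11os, 7 of 10 genes were tested (2 negative, median 0.11, 2 at an unadjusted p under 0.05). Abhd11 itself, which overlaps it, held 17.5 CPM in WT (SD 1.45, n = 8) and 17.3 CPM in BAC-CAG striatum (SD 1.82, n = 8), a log2 change of -0.04 (SE 0.06). Stx1a and Dnajc30 nearby were at 0.62 (SE 0.26) and 0.11 (SE 0.05).

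In WT mice 6 of the 7 genes were far more abundant in striatum than in cortex, and Ddit4l was the exception. All 7 were called by edgeR between the tissues in each of the 4 cohorts and ages, where 59.4, 66.2, 65.5 and 61.2% of all genes tested were also called (2, 6 and 12 months and the BACHD cohort). A call was therefore common in this contrast. It was also partly set by the filter on low counts, since some members did not pass that filter in cortex alone and entered through striatum. These were Serpinb1b at 2, 6 and 12 months, Odf4 and Sec14l3 at 6 months, and Odf4 in the BACHD cohort. At 12 months Sec14l3 had 8.92 CPM in WT striatum and 0.289 CPM in WT cortex, a ratio of 30.9 and a log2 difference of 4.88 (SE 0.21). Abhd11os stood at 8.60 and 0.445 CPM, a ratio of 19.3 and a log2 difference of 4.21 (SE 0.15). Serpinb1b had a ratio of 14.8, St8sia2 11.4, Odf4 7.46 and Phex 6.66. Over the 4 cohorts and ages the log2 difference of these 6 genes lay between 2.47 and 4.88. Ddit4l was lower in striatum, at 19.5 against 33.4 CPM at 12 months, with a log2 difference of -0.83 (SE 0.11), and of -0.86, -0.70 and -0.32 at 2 months, 6 months and in the BACHD cohort.

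**Figure D4:**
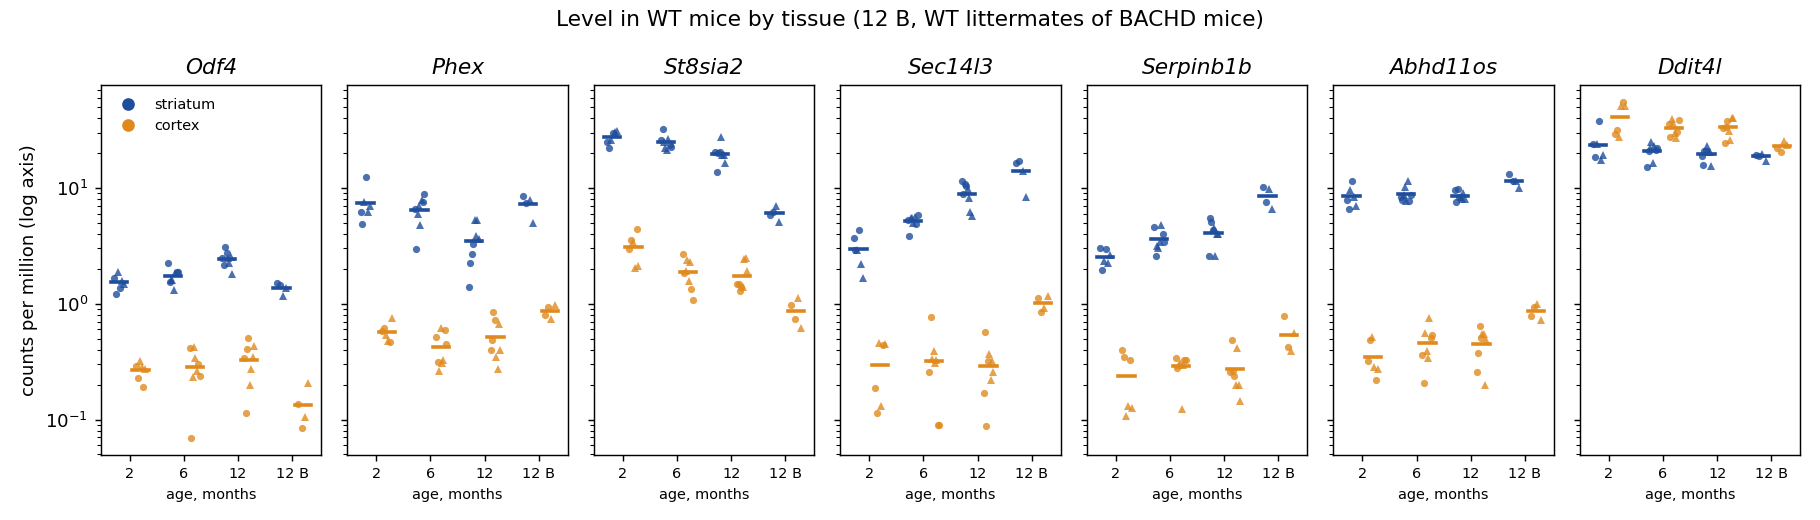
Level of each gene in WT mice (vertical axis, CPM, log axis) in striatum (blue) and cortex (orange) at 2, 6 and 12 months in the BAC-CAG cohort and at 12 months in the BACHD cohort (12 B), with a point per library (females as circles, males as triangles) and bars for means. For 6 genes every striatal library lies above every cortical library, and Ddit4l is higher in cortex.

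The ratio of tissues moved with age for some members. That of Sec14l3 was 9.96 at 2 months, 16.2 at 6 months and 30.9 at 12 months, with a higher striatal level at each age and cortical means between 0.289 and 0.320 CPM. Serpinb1b went from 10.6 to 12.6 and 14.8. Phex went from 12.95 to 15.2 and then 6.66. These ratios compare tables that were counted separately, and no test was made between ages.

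In the cortex no member differed between genotypes by the test. With edgeR 0 members were called at 2 months (6 tested, 0.00563% of all genes called), 6 months (4 tested, 0.0114%), 12 months (6 tested, 0.00557%) and in BACHD mice (6 tested, 0.00631%). At an unadjusted p under 0.05 there were 2, 2, 0 and 1 members, and DESeq2 and limma-voom called 0 in each. Serpinb1b did not pass the filter on low counts in the BAC-CAG cohort, Odf4 and Sec14l3 did not at 6 months, and Odf4 did not in the BACHD cohort. Phex, the member with the largest early striatal difference, was at -0.56 (SE 0.22, adjusted p = 0.70, edgeR) in 2-month cortex, and then, in order of age, at -0.12 (SE 0.23) and -0.39 (SE 0.22), with -0.15 (SE 0.19) in BACHD mice. Its cortical mean at 2 months was 0.572 CPM in WT (SD 0.105, n = 6) and 0.386 CPM in BAC-CAG mice (SD 0.107, n = 6). Odf4 held between 1 and 19 reads in any cortical library, which limits what could be detected there.

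Ddit4l and St8sia2 had enough reads in cortex for a closer comparison. Ddit4l held 17.1 to 49.1 CPM in BAC-CAG and 24.7 to 40.5 CPM in WT cortex at 12 months, with 559 or more reads in each library, and its log2 change of -0.19 (SE 0.17, adjusted p = 1, edgeR) stood beside -1.03 in striatum. The striatal minus cortical change of Ddit4l was -0.84 (SE 0.25) in a joint fit. St8sia2 was at 0.20 (SE 0.17) in cortex at 12 months, with a striatal minus cortical change of -0.81 (SE 0.24). For Sec14l3, Serpinb1b, Odf4 and Phex that difference was -1.64 (SE 0.46), -1.22 (SE 0.42), -0.96 (SE 0.37) and -0.74 (SE 0.38), and for Abhd11os it was -0.26 (SE 0.23). Those of Phex and Abhd11os were within 2 SE of 0. At 2 months the difference was within 2 SE of 0 for every member, among them Odf4 at -0.53 (SE 0.35) and Phex at -0.35 (SE 0.33). At 6 months it was -0.82 (SE 0.23) for St8sia2 and -0.69 (SE 0.33) for Phex, and within 2 SE of 0 for the others. In BACHD mice it was -0.82 (SE 0.32) for St8sia2 and -0.68 (SE 0.26) for Phex, and within 2 SE of 0 for the other 5. These differences contain the striatal change that chose the genes and are given without a test.

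Members differed in how they varied among animals of a group. After the mean of each age and genotype was subtracted in the 44 striatal libraries of the BAC-CAG cohort, Sec14l3 and Ddit4l had the closest course of any pair of members (Pearson r = 0.576). Ddit4l and Odf4 followed at 0.537 and Ddit4l and Abhd11os at 0.534. Phex stood apart from Odf4 (0.158) and Sec14l3 (0.121), and among 17570 genes compared it was most like Neto2 (0.762), Rgs20 (0.718) and Cx3cl1 (0.715). Sec14l3 was most like Ryr1 (0.730), Fgf3 (0.706) and Tcf7 (0.677). Ddit4l was most like Gm42456 (0.70), Plxnd1 (0.671) and Actn2 (0.670), the last of which was itself called lower at 12 months. The closest genes were Gm19410 for Odf4 (0.715), Il2rb for Serpinb1b (0.647), Arpp21 for St8sia2 (0.674) and Ppp1ca for Abhd11os (0.758). With the summed projection neuron genes the coefficient ran from 0.385 for Serpinb1b to 0.676 for Ddit4l, and with the summed cortical markers from -0.319 for Sec14l3 to -0.096 for Phex. Of the 9 other marker lists, the coefficients farthest from 0 were 0.482 for St8sia2 with ependymal markers, and -0.45 for Ddit4l and -0.407 for Abhd11os with immature neuron markers. These coefficients are descriptions over libraries that share dissection and depth. Over all libraries of both tissues the tissues form separate clusters, and no pooled coefficient is given.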

How the data were processed

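Total RNA of striatum and cortex went into stranded libraries (labels' protocols). In the 4 tables that the authors deposited the values are whole-number counts per gene, made with STAR and HTSeq on GRCm38 (mm10), per the submitters' processing notes, with versions and settings not given in the sources used here. Columns were linked to samples through the animal tags in the titles, and no column was left over. Genes were tested in R 4.3.3 with edgeR 4.0.16 (TMM, filterByExpr by group, quasi-likelihood F test, sex as covariate, two-sided, Benjamini-Hochberg over all genes tested, threshold 0.05), separately per cohort, tissue and age. Each SE was taken as the absolute log2 change over the root of the F statistic. Total counts lay between 25.8 and 48.4 M, and a CPM is a count over that total. The alternatives were DESeq2 1.42.0, limma-voom with quality weights (limma 3.58.1), RLE factors, no low-count filter, no sex covariate, the animal as a block between tissues, and leaving out each library. Leaving out pairs of libraries rich in cortical or oligodendrocyte markers was chosen after seeing the data.

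The members, gene lists and comparisons were chosen with earlier results of these data known. The genes named are the 7 members, each list's called genes and its 2 with the smallest p at 12 months, near relatives, and the 3 genes of highest correlation with a member. Per the title tags, 5 WT animals at 2 months, 8 at 6 and 12 months and 4 of the BACHD cohort gave libraries of both tissues, whose deviations from the group means correlated with a median of 0.365, 0.532, 0.330 and 0.231 (2, 6 and 12 months and the BACHD cohort). The fits were tested on simulated data. No pair of replicates agreed within sampling noise. Sequences are from RefSeq (GRCm38.p6). Protein sequences were not used here.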

Additional observations from a re-analysis of the deposited data

Results flagged for a closer look

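In 112 groups of libraries examined over the 7 genes, 5 held a library whose gap to its nearest neighbour, as a share of the group's range, was above Dixon's 95% critical value, a limit that by its construction marks about 1 in 20 groups. WT striatum at 2 months replicate 4 was the highest of its group for both Ddit4l (38.0 CPM) and Phex (12.6 CPM). The other 3 were cortical: Phex in BAC-CAG cortex at 12 months replicate 3 (0.669 CPM, high), Sec14l3 in WT cortex at 6 months replicate 2 (0.764 CPM, high) and Serpinb1b in WT cortex at 6 months replicate 5 (0.124 CPM, low).

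Comparisons that shared the tissue, or the line and age, were set side by side. In 3 such cases all transgenic libraries lay on one side of the WT mean in one comparison and on the other side in another. Abhd11os was below it in BAC-CAG striatum at 12 months and above it in BACHD striatum, with log2 ratios of means that differ by -0.61. Within BACHD mice, Abhd11os was below it in cortex and above it in striatum (a difference of -0.36). St8sia2 was below it in BAC-CAG cortex at 2 months and above it in BACHD cortex at 12 months (a difference of -0.74). None of these differences was tested.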

How the results depend on the processing

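The 7 tissue calls in WT mice held in each cohort and age under every alternative run, the animal as a replicate block included (7 in each). In the main fits of this contrast 59.4 to 66.2% of all genes were called, and some members passed the filter only through striatum. The stability of these calls therefore says little about the members. With DESeq2 the members called between genotypes in striatum were 1 at 2 months (0.0335% of all genes called), 3 at 6 months (0.141%) and 1 in BACHD mice (0.24%) in place of 0, and 1 by sex at 12 months, as with limma-voom (1, Phex in both). At 12 months the count was 5 to 7 under other tools, scalings and filters (7 with DESeq2, 1.54% of all genes, and with limma-voom, 1.09%), 2 without BAC-CAG replicates 2 and 7 together (0.0812%), and 3 to 7 when each library was left out in turn (3 without BAC-CAG replicate 6, 0.0926%). Odf4, Sec14l3 and Ddit4l were called in all 16 of those fits, Phex in 15, Abhd11os in 13, St8sia2 in 4 and Serpinb1b in 2. Without a sex covariate Phex was not called and Serpinb1b was. The count was 0 to 1 at 6 months (Phex, without WT replicate 2) and 0 to 1 in BACHD mice (Phex, without WT replicate 4). Where no share stands beside a count or call in this paragraph, the share of all genes called in that fit is not given. Some small uncalled changes switched sign. Abhd11os at 2 months was -0.045 without WT replicates 5 and 6. With limma-voom Sec14l3 and Ddit4l in 2-month cortex were 0.33 and 0.15. With each library left out in turn, Sec14l3 in 2-month striatum ran from -0.155 to 0.054, Abhd11os from -0.167 to 0.047 in 6-month striatum and from -0.0037 to 0.117 in BACHD striatum. In 2-month cortex Odf4 ran from -0.44 to 0.063, Sec14l3 from -0.33 to 0.071 and Ddit4l from -0.13 to 0.13, and Phex in 6-month cortex from -0.22 to 0.020. The cause was not tested. Between genotypes no block was run: the animal tags share prefixes, whose meaning the labels do not give. Depth limits the cortical comparisons of Odf4, Sec14l3 and Serpinb1b.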
